A study of Homo sapiens with 6 samples.

Results

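The 10 genes described here, VEGFA, ADM, NDRG1, BNIP3, BNIP3L, EGLN1, EGLN3, CA9, ANKRD37 and FAM162A, are targets that cells switch on when oxygen is short. They were taken by symbol from a table of 60612 genes, in which each symbol occurred in 1 row. The table holds RNA-seq values for HCT116, a line long established from a human colorectal carcinoma, in 2 groups: 3 samples that received si NC, a control siRNA, and 3 that received PLOD3 siRNA, each for 2 days. Both groups are the same line under the same culture conditions, and the labels name no low-oxygen step in either. The sequence of the siRNA is not given in the sources used here, nor is whether 1 or several were used. Nothing in the labels says that samples of a group came from separate cultures, so every p-value rests on the spread among these 6 samples, and that spread may be technical.

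Cells sense oxygen through hydroxylation of the alpha subunits of hypoxia-inducible factor (HIF), HIF1A and EPAS1. With oxygen present, the EGLN enzymes hydroxylate prolines of the alpha subunit, VHL recognises them and its ubiquitin ligase sends the subunit to the proteasome. When oxygen is short the subunit persists, pairs with ARNT and binds DNA at a short core, ACGTG or GCGTG, near its targets. The EGLN enzymes and PLOD3, a lysyl hydroxylase that acts on collagen, belong to the same class of enzymes, which use oxygen, iron and 2-oxoglutarate. The genes studied here cover secreted signals (VEGFA, ADM), oxygen sensors that are themselves HIF targets (EGLN1, EGLN3), mitochondrial proteins (BNIP3, BNIP3L, FAM162A), the surface enzyme CA9 that acidifies the outside of the cell, the stress-responsive NDRG1, and ANKRD37. HIF itself is controlled mainly at the level of protein, which RNA-seq does not measure.

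The promoters are shown because the HIF core is what these genes are known to share. RefSeq (GRCh38.p14) gave a promoter window, 250 bases before to 50 after the start of transcription, for 7 of the 10 genes: ADM, BNIP3, EGLN1, EGLN3, CA9, ANKRD37 and FAM162A. VEGFA, NDRG1 and BNIP3L were not matched. The start is that of RefSeq and can differ from that of the deposited gene. The deposited ANKRD37 begins at 185396021 (plus strand) and EGLN3 at 34222953 (minus strand), so both windows lie inside the deposited genes. The 250 bases before the start are printed 5′ to 3′ on the strand of the gene, in lower case, with ACGTG and its reverse complement CACGT in capitals. BNIP3 and FAM162A are the pair that rose, ANKRD37 and EGLN1 hold the core and did not pass the test, and EGLN3 holds none in this window.
BNIP3 (chr10:131981924-131982173, minus strand): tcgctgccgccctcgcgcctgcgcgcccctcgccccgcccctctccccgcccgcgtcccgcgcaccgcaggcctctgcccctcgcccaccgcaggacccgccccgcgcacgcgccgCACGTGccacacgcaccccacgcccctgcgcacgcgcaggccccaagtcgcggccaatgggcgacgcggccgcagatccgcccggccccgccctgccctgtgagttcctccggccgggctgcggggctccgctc
FAM162A (chr3:122383932-122384181, plus strand): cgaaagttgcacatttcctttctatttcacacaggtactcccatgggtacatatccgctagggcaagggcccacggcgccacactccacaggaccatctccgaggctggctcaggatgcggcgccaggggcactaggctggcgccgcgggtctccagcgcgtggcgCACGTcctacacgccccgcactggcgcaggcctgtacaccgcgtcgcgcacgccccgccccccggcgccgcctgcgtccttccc
ANKRD37 (chr4:185396591-185396840, plus strand): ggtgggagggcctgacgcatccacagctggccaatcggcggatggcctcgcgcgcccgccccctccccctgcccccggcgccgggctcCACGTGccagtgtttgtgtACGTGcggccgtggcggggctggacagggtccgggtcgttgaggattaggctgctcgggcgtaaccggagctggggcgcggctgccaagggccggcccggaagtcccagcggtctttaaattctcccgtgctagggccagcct
EGLN1 (chr1:231422288-231422537, minus strand): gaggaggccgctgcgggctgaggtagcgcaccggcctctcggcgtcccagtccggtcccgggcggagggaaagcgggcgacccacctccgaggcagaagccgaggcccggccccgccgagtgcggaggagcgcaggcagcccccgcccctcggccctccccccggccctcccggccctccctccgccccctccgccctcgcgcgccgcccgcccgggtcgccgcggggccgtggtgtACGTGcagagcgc
EGLN3 (chr14:33951075-33951324, minus strand): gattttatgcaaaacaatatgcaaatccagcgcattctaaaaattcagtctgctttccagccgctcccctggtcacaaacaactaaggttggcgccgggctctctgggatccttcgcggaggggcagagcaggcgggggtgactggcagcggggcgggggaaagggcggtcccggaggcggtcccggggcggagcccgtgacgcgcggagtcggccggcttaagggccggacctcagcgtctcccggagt

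ACGTG or CACGT occurred in 5 of the 7 windows and in 21.4% of all 34943 RefSeq windows of the same 300 bases. The core holds a CG pair. The 250 bases before the start had 60.4% to 81.6% GC and 5 to 41 CG pairs in the 7, against medians of 58.0% and 11 over all windows. Whether base content accounts for the difference in share was not tested. In BNIP3 the 2 strands overlap to form CACGTG, 134 bases before the start, and in ANKRD37 they do so 162 bases before it, with a further ACGTG at 143. EGLN1 held ACGTG 13 bases before the start, FAM162A held CACGT at 84, and CA9 held CACGT at 18. The other form of the core, GCGTG or CACGC, occurred in 3 of the 7 windows (ADM, BNIP3 and FAM162A) and in 36.5% of all windows, 4 times in BNIP3 and 3 times in FAM162A. These matches are descriptions of the letters in these windows.

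The estimated counts of a sample summed to between 55416555 and 76802428 units, and how a unit relates to a read pair was not stated. Pearson's r across genes was 0.961 to 0.971 within a group and 0.935 to 0.951 between groups. PLOD3, the target of the siRNA, stood at 55.1% of the control FPKM (6.59 ± 0.501 against 3.63 ± 0.364, SD, n = 3 each), with a log2 fold change of -0.85 (edgeR adjusted p = 0.0035), and was lower in 3 of 3 samples. After a correction for GC content its log2 fold change was -0.54 (edgeR adjusted p = 0.00662). Of 10 markers of colorectal epithelium, 6 had a mean FPKM of at least 1, among them EPCAM, CDH1, KRT8 and CDX2, while VIL1, CDH17, CEACAM5 and LGALS4 were under 0.1. The summed FPKM of the 10 was 666 to 720 in the controls and 562 to 638 after PLOD3 siRNA. Of 10 markers each, 8 of fibroblasts, 8 of leukocytes and 9 of endothelial cells were under 0.1. The exceptions above 1 were COL1A1, CD68 and ESAM. The summed FPKM of the fibroblast markers was 2.68 to 2.99 in the controls and 1.53 to 1.93 after PLOD3 siRNA, without overlap, and COL1A1 fell (log2 -0.50, edgeR adjusted p = 0.0158). COL1A1 lost this call after the GC correction (log2 -0.20, edgeR adjusted p = 0.218) and in limma on TPM. The leukocyte sum was 1.03 to 1.98 and 1.72 to 1.98, in which CD68 was at 0.807 ± 0.400 and 1.55 ± 0.0361 (SD, n = 3 each, log2 0.96, edgeR adjusted p = 0.0614), and the endothelial sum was 2.54 to 2.87 and 2.42 to 2.88. Whether these differences bear on the 10 genes was not tested.

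The 10 genes differed widely in level. In mean FPKM (fragments scaled by transcript length and library size, so that levels can be compared between genes) the order in si NC was ADM, FAM162A, BNIP3L, NDRG1, EGLN1, BNIP3, VEGFA, ANKRD37, EGLN3 and CA9. ADM, at 13.5 ± 1.21, stood above 78.7% of all tested genes by its mean over the 6 samples, and CA9, the textbook surface marker of low oxygen, was lowest at 0.537 ± 0.141 (SD, n = 3 each). The 3 control values of neighbouring genes in this order overlapped for ADM and FAM162A, for NDRG1 and EGLN1, and for VEGFA and ANKRD37, and were apart for the other neighbours. The spread between control samples also differed: the coefficient of variation was 3.54% for BNIP3L and 3.97% for EGLN1, against 18.7% for VEGFA, 20.5% for ANKRD37 and 26.2% for CA9.

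**Figure D1:**
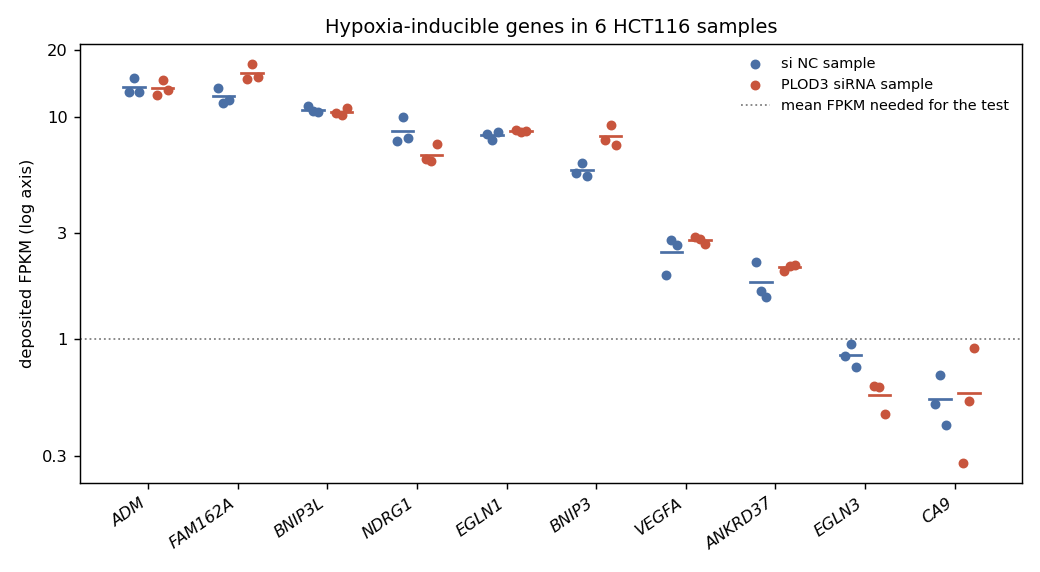
Deposited FPKM (log axis) of the 10 hypoxia-inducible genes, in the order of their si NC mean; each point is 1 sample, each dash the mean of 3, and the dotted line the mean of 1 needed for the test. BNIP3 and FAM162A lie higher in all 3 PLOD3 siRNA samples, NDRG1 and EGLN3 lower, and the points of ADM, BNIP3L, VEGFA, ANKRD37 and CA9 overlap.

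The comparison asks whether hypoxia-inducible genes changed when PLOD3 was lowered. BNIP3 and FAM162A rose by 1.43-fold and 1.28-fold, and the other 6 tested genes did not pass the test. Among those 6 was BNIP3L (log2 -0.03), which like BNIP3 and FAM162A encodes a mitochondrial protein. Of the 10 genes, 8 had a mean FPKM of at least 1 over the 6 samples and were tested among 12000 genes. With edgeR at an adjusted p of 0.05, 2 of these 8 rose (25%) and 0 fell, where 35.5% of all tested genes were called, 16.2% higher and 19.3% lower. At an unadjusted edgeR p of 0.05 the counts were 2 higher and 1 lower (NDRG1). By that p NDRG1 ranked only 5008 among the 12000 tested genes. DESeq2 also called 2 higher and 0 lower, beside 2355 and 2557 of all 12000 tested genes. The count of higher genes was 1 without the FPKM filter, after the GC correction with or without length and with the replicate block, and 0 to 1 when a sample was left out (0 without si NC replicate 1 or 3), FAM162A being lost in each of these. The count of lower genes was 1 after the GC correction (BNIP3L) and with the filter raised to 5 FPKM (NDRG1). The median log2 fold change of the 8 was 0.13, against 0.00337 over all tested genes, and the median size of the change irrespective of sign was 0.21 against 0.31. None of the 8 reached 1.5-fold. In a bulk sample, fewer cells that express a gene and less RNA per cell cannot be told apart.

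The 3 values of each group did not overlap for BNIP3, FAM162A and EGLN1 (higher in PLOD3 siRNA) and for NDRG1 (lower), that is for 3 and 1 of the 8, where 52.1% of all tested genes were apart, 24.6% in the higher and 27.5% in the lower direction. For a single gene an exact permutation test has a smallest two-sided p of 0.1 with these groups, so none can pass it. On TPM, limma called 2470 genes higher and 1461 lower (62.8% of its calls higher), where limma on FPKM called 1859 and 2196 and edgeR on counts 45.6% higher. The median log2 fold change over all tested genes was 0.10 on TPM, and BNIP3 and FAM162A were among the higher genes there too.

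**Figure D2:**
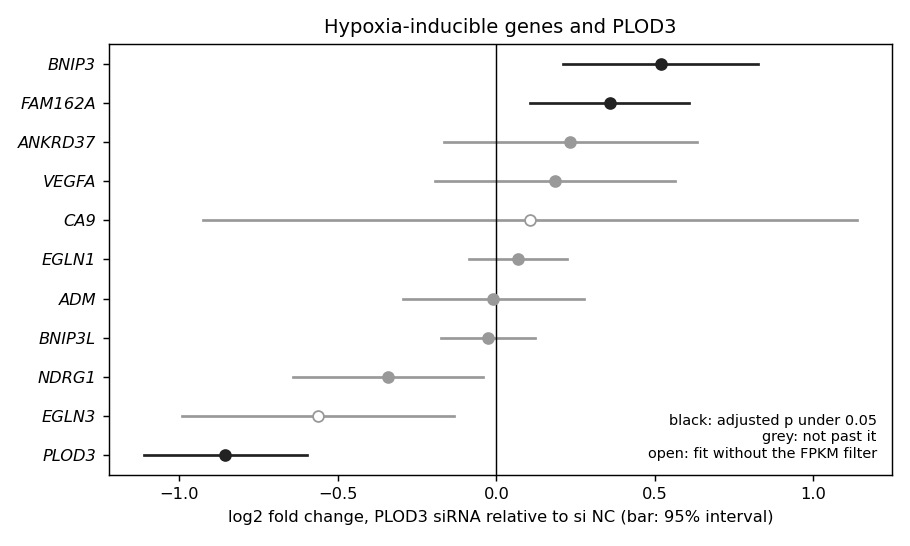
Log2 fold change of PLOD3 siRNA relative to si NC (x axis) with its 95% interval for the 10 genes and PLOD3; black marks an edgeR adjusted p under 0.05, and open circles come from a fit without the FPKM filter. The intervals of BNIP3 and FAM162A lie above 0, and those of NDRG1 and EGLN3, which did not pass after adjustment, lie below it. Those of BNIP3L and EGLN1 are the shortest and span 0, that of ADM also spans 0, and that of CA9 is the widest.

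BNIP3 (ENSG00000176171, chromosome 10, 131966455 to 131982013, minus strand, GRCh38) encodes a receptor on the outer mitochondrial membrane that marks mitochondria for removal by autophagy. Its FPKM was 5.58, 6.21 and 5.39 under si NC, against 7.85, 9.21 and 7.41 under PLOD3 siRNA. All 3 treated samples were above all controls, and replicate 2 was the highest in each group. The mean rose from 5.73 ± 0.428 to 8.16 ± 0.936 (SD, n = 3 each), a log2 fold change of 0.52 (SE 0.128, 95% interval 0.21 to 0.82, edgeR adjusted p = 0.0231). Leaving out si NC replicate 1 or 3 ended the call (edgeR adjusted p = 0.0669 and 0.0738), and it held in the other 4 fits that left out a sample.

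BNIP3L, also called NIX, encodes a related mitophagy receptor, and its level did not pass the test. BNIP3L (ENSG00000104765, chromosome 8) stood at 11.2, 10.6 and 10.4 FPKM under si NC, against 10.4, 10.2 and 10.9 under PLOD3 siRNA. The groups overlap, with 1 treated sample inside the range of the controls and 2 just below it. Its log2 fold change was -0.03 (95% interval -0.18 to 0.12, edgeR adjusted p = 0.769), so that the interval leaves out changes beyond 0.885-fold and 1.09-fold in this fit. After a correction for GC content it was called lower (log2 -0.30, edgeR adjusted p = 0.0328).

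Since both receptors were measured in each sample, their ratio is free of any scaling that is common to both genes. A shift that depends on GC content does not cancel, and their longest coding transcripts differ in it (51.4% in BNIP3, 38.9% in BNIP3L). The FPKM of BNIP3 divided by that of BNIP3L was 0.501, 0.585 and 0.517 under si NC, against 0.756, 0.902 and 0.680 under PLOD3 siRNA. The lowest treated ratio was thus above the highest control ratio. The mean ratio went from 0.534 ± 0.0451 to 0.780 ± 0.113 (SD, n = 3 each), 1.46 times the control value (two-sided exact permutation p = 0.1, the smallest it can give). The test cannot pass with 3 against 3, and the ratio uses the same BNIP3 values as the test of that gene.

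FAM162A encodes a mitochondrial protein linked to cell death under low oxygen, and it was the second of the pair that rose. FAM162A (ENSG00000114023, chromosome 3, 122384176 to 122412334, plus strand) was at 13.5, 11.5 and 11.9 FPKM under si NC, against 14.7, 17.2 and 15.0 under PLOD3 siRNA. The groups do not overlap, but the highest control and the lowest treated sample are close. The mean rose from 12.3 ± 1.04 to 15.7 ± 1.37 (SD, n = 3 each), a log2 fold change of 0.36 (SE 0.104, 95% interval 0.11 to 0.61, edgeR adjusted p = 0.0386). The call was lost in all 6 fits that left out a sample (edgeR adjusted p = 0.0522 to 0.111) and after the GC correction (log2 0.11, edgeR adjusted p = 0.401).

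GC content moved with the fold changes over the whole table. Pearson's r between fold change and GC content was -0.376 across 11968 tested genes, which share the same 6 libraries. The median log2 fold change was 0.28 in the 20% of genes with the lowest GC (up to 41.4%) and -0.33 in the 20% with the highest (from 58.6%). The longest coding transcript of FAM162A has 40.2% GC and that of BNIP3L 38.9%, so both are among the lowest 20%, while BNIP3, at 51.4%, is near the median of 49.1%. BNIP3 kept its call after the GC correction (log2 0.57, edgeR adjusted p = 0.0187). At its 3′ end FAM162A overlaps WDR5B on the other strand over 489 bases, whose mean level was 0.953 FPKM in the controls and 1.72 after PLOD3 siRNA. Without a stated strand setting, reads of the 2 genes in that stretch cannot be told apart.

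**Figure D3:**
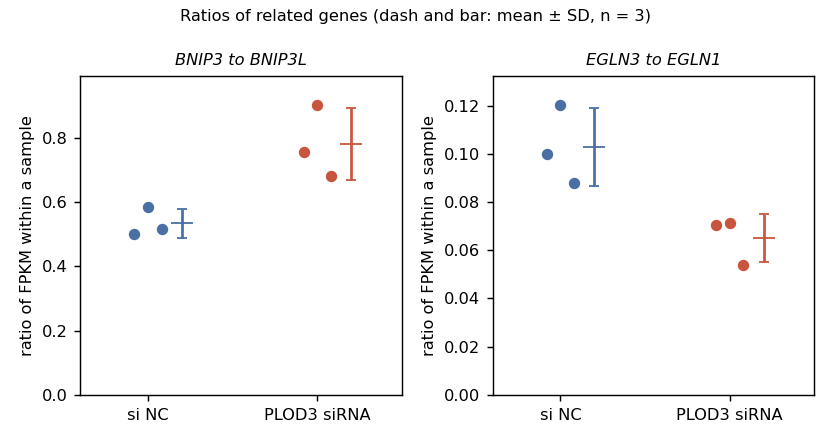
Ratio of FPKM within each sample (y axis from 0) for the related pairs BNIP3 to BNIP3L and EGLN3 to EGLN1; points are the 3 samples of a group and the dash with bars is the mean ± SD. BNIP3 to BNIP3L is higher and EGLN3 to EGLN1 lower in all 3 PLOD3 siRNA samples.

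Neither of the 2 oxygen sensors among the genes passed the test. EGLN1 (PHD2), the main HIF prolyl hydroxylase in most cells (ENSG00000135766, chromosome 1, 231363751 to 231422287, minus strand), was at 8.37, 7.89 and 8.51 FPKM under si NC, against 8.72, 8.56 and 8.59 under PLOD3 siRNA. The groups do not overlap, though by a narrow margin. The log2 fold change was 0.07 (95% interval -0.09 to 0.22, edgeR adjusted p = 0.436) and did not pass the test.

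EGLN3 (PHD3), which is usually among the most strongly hypoxia-induced of the sensors (ENSG00000129521, chromosome 14, 33924227 to 34222953, minus strand), had a mean FPKM of 0.704 over the 6 samples and so was not in the main test. Its FPKM was 0.837, 0.949 and 0.749 under si NC, against 0.615, 0.612 and 0.462 under PLOD3 siRNA. All treated samples were below all controls, at a mean of 66.6% of the control. In the fit without the FPKM filter its log2 difference was -0.56 (95% interval -0.99 to -0.13), which did not pass after adjustment over 32482 genes (edgeR adjusted p = 0.101, unadjusted 0.0162).

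The ratio of EGLN3 to EGLN1 within a sample was 0.10, 0.12 and 0.088 under si NC, against 0.0704, 0.0715 and 0.0538 under PLOD3 siRNA. The mean ratio in PLOD3 siRNA was 0.635 times that in si NC, without overlap (two-sided exact permutation p = 0.1, the smallest it can give, n = 3 each).

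The secreted signals did not pass the test. VEGFA, the growth factor that draws new blood vessels (ENSG00000112715, chromosome 6, 43770184 to 43786487, plus strand), was at 1.93, 2.80 and 2.64 FPKM under si NC, against 2.87, 2.83 and 2.67 under PLOD3 siRNA. Replicate 1 of si NC is the low value, and the other 2 controls lie close to the treated samples. The log2 fold change was 0.18 (95% interval -0.19 to 0.56, edgeR adjusted p = 0.395), and without that sample it was 0.02.

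ADM, which encodes the vessel-widening peptide adrenomedullin (ENSG00000148926, chromosome 11, 10305073 to 10307397, plus strand), was at 12.83, 14.92 and 12.83 FPKM under si NC, against 12.45, 14.53 and 13.18 under PLOD3 siRNA. The groups overlap, with PLOD3 siRNA replicate 1 the lowest and si NC replicate 2 the highest value, and with means of 13.5 ± 1.21 and 13.4 ± 1.06 (SD, n = 3 each). The log2 fold change was -0.01 (95% interval -0.30 to 0.28, edgeR adjusted p = 0.96), which leaves out changes beyond 0.814-fold and 1.21-fold in this fit. Its transcript is GC-rich (58.5%), and after the GC correction the value was 0.24 (edgeR adjusted p = 0.122).

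NDRG1, a stress-responsive cytoplasmic protein often induced by low oxygen, came closest to the threshold in the lower direction. NDRG1 (ENSG00000104419, chromosome 8) was at 7.80, 9.92 and 7.98 FPKM under si NC, against 6.44, 6.31 and 7.49 under PLOD3 siRNA. The groups do not overlap, with si NC replicate 2 the highest. The log2 fold change was -0.34 (95% interval -0.64 to -0.04), with an unadjusted edgeR p of 0.0312 and an adjusted p of 0.0747. When the filter was raised to 5 FPKM it passed (log2 -0.38, edgeR adjusted p = 0.0462), and after the GC correction it stood at -0.10 (edgeR adjusted p = 0.45).

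ANKRD37 (ENSG00000186352, chromosome 4, 185396021 to 185400241, plus strand), an ankyrin repeat protein, was at 2.23, 1.64 and 1.55 FPKM under si NC, against 2.02, 2.13 and 2.15 under PLOD3 siRNA. Replicate 1 of si NC was the highest of all 6, and the other controls were below the treated samples. The log2 fold change was 0.23 (95% interval -0.16 to 0.63, edgeR adjusted p = 0.308). ANKRD37 overlaps UFSP2 on the other strand over 705 bases, and UFSP2 had mean FPKM of 5.69 and 7.94 in the 2 groups.

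CA9 (ENSG00000107159, chromosome 9, 35673918 to 35681159, plus strand), also under the filter, was at 0.509, 0.690 and 0.412 FPKM under si NC, against 0.278, 0.526 and 0.911 under PLOD3 siRNA. The treated samples spread over more than the whole range of the controls, and rest on 38 to 96 units of count. In the fit without the filter the log2 difference was 0.11 (95% interval -0.93 to 1.14, edgeR adjusted p = 0.923). The interval runs from 0.526-fold to 2.20-fold, and changes inside it are not excluded. CA9 overlaps ARHGEF39 on the other strand over 1949 bases, and ARHGEF39 had the higher mean FPKM, 2.90 in si NC and 3.33 in PLOD3 siRNA.

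**Figure D4:**
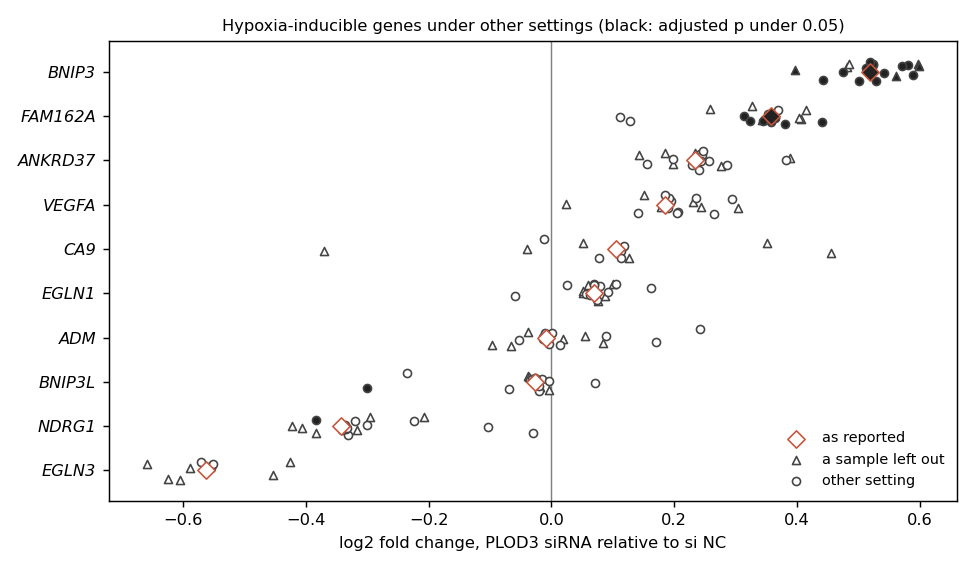
Log2 fold change (x axis) of each of the 10 genes as reported (diamond), with 1 sample left out (triangles) and under the other settings (circles); black marks an adjusted p under 0.05. BNIP3 stays between 0.40 and 0.60 throughout, FAM162A drops to 0.11 and 0.13 in the GC corrections, and ADM and CA9 scatter around 0.

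The proteins that sense oxygen and carry the HIF signal were a list of 15 genes, of which 14 were tested. EPAS1, CITED2, EP300 and HIF1AN fell and CUL2 rose, so that 28.6% of those tested fell and 7.14% rose, beside 19.3% and 16.2% of all tested genes. The median log2 fold change was -0.21 (all tested genes 0.00337), and -0.09 on TPM (all tested genes 0.10). EPAS1 encodes HIF-2 alpha, and its FPKM was 9.36, 9.42 and 9.77 under si NC, against 4.75, 2.50 and 5.93 under PLOD3 siRNA. The controls are tight and the treated samples spread widely, all below the controls. Its log2 fold change was -1.12 (SE 0.271, edgeR adjusted p = 0.0217), and the call ended when si NC replicate 2 or 3 was left out, or PLOD3 siRNA replicate 1 (edgeR adjusted p = 0.0588, 0.0592 and 0.0566).

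CITED2, an inducible protein that competes with HIF alpha for its coactivators, fell from 14.6 ± 1.48 to 9.41 ± 0.635 FPKM (SD, n = 3 each, log2 -0.63, edgeR adjusted p = 0.00872). CUL2, the scaffold of the VHL ubiquitin ligase, rose from 7.75 ± 1.07 to 11.0 ± 0.535 FPKM (SD, n = 3 each, log2 0.51, edgeR adjusted p = 0.0142). EP300, the coactivator itself, fell by 0.47 on the log2 scale, and HIF1AN, the asparaginyl hydroxylase that blocks coactivator binding, by 0.29. After the GC correction CUL2 (edgeR adjusted p = 0.0647) and EP300 (0.0628) lost their calls, at log2 values of 0.25 and -0.41, and HIF1AN lost its call in each fit without 1 sample (0.0564 to 0.116). EP300 lost it without si NC replicate 1 or 3 or PLOD3 siRNA replicate 1 or 2 (edgeR adjusted p = 0.0651 to 0.0904).

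HIF1A, named here outside the rule for its role, was at 26.3, 18.2 and 25.4 FPKM under si NC, against 22.3, 18.3 and 21.8 under PLOD3 siRNA, with replicate 2 low in both groups. Its log2 fold change of -0.16 (95% interval -0.50 to 0.18) missed the threshold (edgeR adjusted p = 0.406), and it was called lower after the GC correction (log2 -0.45, edgeR adjusted p = 0.0181). VHL, at 6.82 ± 0.229 and 6.15 ± 0.258 FPKM (SD, n = 3 each), likewise missed the threshold (log2 -0.14, edgeR adjusted p = 0.175).

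Many further HIF targets sit in glycolysis. Of 21 such genes 19 were tested, and HK1, SLC2A1, PKM and PFKL fell while 0 rose, that is 21.1% lower beside 19.3% of all tested genes. The median was -0.05, and it was 0.05 on TPM (all tested genes 0.10) and 0.14 after the GC correction (all tested genes 0.00902). DESeq2 called 2 of the 19 higher and 4 lower, beside 2355 and 2557 of all 12000 tested genes. SLC2A1, the glucose transporter GLUT1, was at 11.1, 10.9 and 10.8 FPKM under si NC, against 6.12, 6.44 and 7.39 under PLOD3 siRNA. The controls lie close together and well above the treated samples. Its log2 fold change was -0.71 (SE 0.0844, edgeR adjusted p = 0.0031). HK1, a hexokinase that starts glycolysis and is less responsive to oxygen than HK2, fell from 17.7 ± 0.227 to 10.3 ± 0.456 FPKM (SD, n = 3 each, log2 -0.78, edgeR adjusted p = 0.00182). Calls of PKM and PFKL were lost after the GC correction (log2 -0.17 and -0.01). There 5 of the 19 were called higher and 2 lower, beside 1559 and 1729 of all 12000 tested genes. PFKL held its call in 3 of 6 fits without 1 sample (lost without si NC replicate 3 or PLOD3 siRNA replicate 1 or 2), and PKM only in the fit without PLOD3 siRNA replicate 3.

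Of 30 other HIF targets 23 were tested, of which KDM3A and P4HA1 rose and LOXL2, PLOD1 and TGFA fell. These are 8.70% higher and 13.0% lower, beside 16.2% and 19.3% of all tested genes. The median was -0.03, and it was 0.08 on TPM (all tested genes 0.10) and 0.02 after the GC correction. KDM3A, a histone H3 lysine 9 demethylase, was at 3.66, 3.34 and 3.46 FPKM under si NC, against 5.38, 4.87 and 4.95 under PLOD3 siRNA, without overlap. Its log2 fold change was 0.54 (SE 0.0664, edgeR adjusted p = 0.00329), and the call held in 6 of 6 fits that left out a sample and after the GC correction. LOXL2 fell from 7.17 ± 0.371 to 2.66 ± 0.321 FPKM (SD, n = 3 each, log2 -1.42, edgeR adjusted p = 0.00149). The call of LOXL2 likewise held in 6 of 6 fits that left out a sample and after the GC correction (log2 -1.19). TGFA, a ligand of the EGF receptor, fell by 0.20 on the log2 scale with an edgeR adjusted p of 0.04996, and lost the call in each of the 6 fits without 1 sample and in DESeq2. After the GC correction 4 of the 23 were higher and 4 lower, beside 1559 and 1729 of all 12000 tested genes. P4HA1 (edgeR adjusted p = 0.0798) and PLOD1 (0.0631) lost their calls there. P4HA1, a collagen prolyl hydroxylase subunit, also lost it without si NC replicate 2 (edgeR adjusted p = 0.0507).

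**Figure D5:**
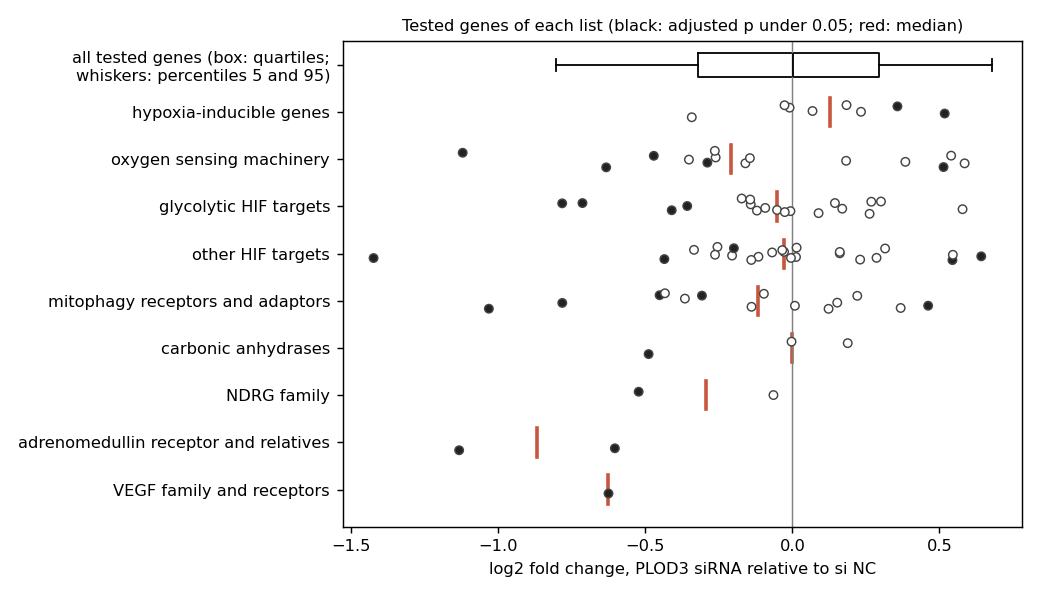
Log2 fold change (x axis) of the tested genes of each list; black points have an edgeR adjusted p under 0.05, red lines are list medians, and the box shows all 12000 tested genes. The hypoxia-inducible genes lie between -0.34 and 0.52, inside the whiskers of all genes, while EPAS1, PINK1, ADM2 and LOXL2 lie below -1.

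Relatives of the 10 genes were mostly too low to test, and each list of them held only 1 to 3 tested genes. Of all tested genes, 19.3% were called lower and 16.2% higher. Of 9 further VEGF ligands and receptors only VEGFB had a mean FPKM of at least 1, and it fell from 11.8 ± 0.640 to 7.60 ± 0.621 FPKM (SD, n = 3 each, log2 -0.63, edgeR adjusted p = 0.00626). Of 7 genes for relatives of adrenomedullin, the receptor CALCRL and its RAMP partners, 2 were tested and both fell. ADM2, a peptide related to adrenomedullin, fell by 1.13 on the log2 scale (edgeR adjusted p = 0.00255). RAMP1, a partner of CALCRL, fell by 0.60 (edgeR adjusted p = 0.0147). CALCRL, the receptor for adrenomedullin, had a mean FPKM of 0.218 in si NC, and RAMP2 and RAMP3 had 0 FPKM in both groups. Whether a receptor for adrenomedullin changed was not tested. Of 3 other NDRG genes NDRG2 fell (log2 -0.52, edgeR adjusted p = 0.0266) and NDRG3 did not pass (-0.06), and of 10 other carbonic anhydrases 3 were tested and CA11 fell (log2 -0.49, edgeR adjusted p = 0.00963). After the GC correction VEGFB, RAMP1, NDRG2 and CA11 lost their calls (edgeR adjusted p = 0.0771, 0.200, 0.0854 and 0.0926) and ADM2 kept it. NDRG2 lost its call without any 1 control or PLOD3 siRNA replicate 1 (edgeR adjusted p = 0.0515 to 0.0729), and RAMP1 without PLOD3 siRNA replicate 1 (edgeR adjusted p = 0.0532).

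Genes that work beside BNIP3 in mitophagy were a list of 15, with 14 tested. PINK1, OPTN, FKBP8 and GABARAPL2 fell and TAX1BP1 rose, so that 28.6% of those tested fell and 7.14% rose, beside 19.3% and 16.2% of all tested genes. The median was -0.12, and it was 0.03 on TPM (all tested genes 0.10). PINK1, the kinase that accumulates on damaged mitochondria, was at 8.73, 8.62 and 8.19 FPKM under si NC, against 4.10, 4.29 and 4.03 under PLOD3 siRNA. Both groups are tight and far apart. Its log2 fold change was -1.03 (SE 0.0837, edgeR adjusted p = 0.00186). OPTN, an adaptor that links ubiquitin-marked mitochondria to the autophagosome, fell from 6.10 ± 0.122 to 3.52 ± 0.189 FPKM (SD, n = 3 each, log2 -0.78, edgeR adjusted p = 0.00282), and PINK1 and OPTN kept their calls after the GC correction. FKBP8, a receptor on the outer membrane like BNIP3, lost its call there (log2 -0.05, edgeR adjusted p = 0.583), and, barely, without PLOD3 siRNA replicate 1 (0.051). GABARAPL2, which helps to load cargo into autophagosomes, lost its call without si NC replicate 3 or PLOD3 siRNA replicate 1 (edgeR adjusted p = 0.0537 and 0.0507), and the adaptor TAX1BP1 without si NC replicate 2 or 3 or PLOD3 siRNA replicate 1 or 2 (0.0742 to 0.0806).

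A wider set came from the Gene Ontology terms in the deposited table and was chosen after values were seen. The terms response to hypoxia or cellular response to hypoxia stood beside 292 genes, including 9 of the 10 genes here (all but ANKRD37). Of these, 171 were tested, 20 rose and 48 fell, that is 11.7% and 28.1%, beside 16.2% and 19.3% of all tested genes. The median log2 fold change was -0.16, and it was -0.05 on TPM (all tested genes 0.10). After the GC correction 15 of the 171 were called higher and 42 lower, beside 1559 and 1729 of all 12000 tested genes.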

How the data were processed

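RNA of the 6 HCT116 samples was sequenced after removal of ribosomal RNA, per the labels' protocols. HISAT2 2.0.4, StringTie 1.3.4d and cutadapt 1.9 were used, per the submitters' processing notes. Build, annotation, strand setting and counting method were not given in the sources used here. The authors deposited FPKM, with 0.0001 for genes without reads, and whole estimated counts, per the file headers; 0 value columns were unmapped. Values of 4 were commoner (mean per sample 1490 genes) than 3 (558) or 5 (312); how units relate to read pairs was not stated. Counts summed to 55416555 to 76802428 units per sample. Of the genes, 96.3% were found in GENCODE 29 (GRCh38), and 99.90% of those overlapped their annotated position.

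Deposited counts were used as they stand in edgeR 4.0.16 (R 4.3.3): mean FPKM of at least 1, TMM, trended dispersion, quasi-likelihood test, Benjamini-Hochberg over 12000 genes, threshold 0.05. SE come from the fold change and F statistic, and 95% intervals from them. The alternatives were DESeq2 1.42.0, limma 3.58.1 on log2 values (pseudocount 1 or 0.1, zero for genes without reads), RLE, other filters, counts divided by 4, loess corrections for GC and length (span 0.5), a replicate block and leaving out each sample. Scripts were tested on simulated data. In each list up to 4 tested genes with the smallest p were named, plus every gene in counts of at most 5. The 10 genes and the lists were chosen with earlier results of these data known.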

Additional observations from a re-analysis of the deposited data

How the results depend on the processing

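Of the 10 genes, BNIP3 kept its edgeR call under every setting except 2 of the fits without 1 sample, and FAM162A lost its call without the FPKM filter, in both GC corrections, with the block and in all 6 fits without 1 sample. The count of the 10 genes called higher was therefore 1 in place of 2 without the FPKM filter, after the GC correction, after the GC and length correction and with the replicate block, and 0 to 1 without 1 sample. The count called lower was 1 in place of 0 under the filter of 5 FPKM (NDRG1) and after the GC correction (BNIP3L). Over all genes, 1192 were higher and 1354 lower under the filter of 5 FPKM, 1461 were lower in limma on TPM, 1545 were lower after the GC and length correction, and 1093 to 1669 were higher and 1493 to 2030 lower without 1 sample.

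The sign changed only for genes that did not pass. ADM was at 0.0011 without the filter, 0.014 with filterByExpr, 0.089 on TPM, 0.24 and 0.17 after the GC and the GC and length corrections, and -0.097 to 0.083 without 1 sample. BNIP3L was at 0.071 on TPM, EGLN1 at -0.060 after the GC correction, and CA9 at -0.013 with the replicate block and -0.37 to 0.46 without 1 sample. CA13 was at 0.0033 with RLE and with DESeq2, 0.0078 without the filter, 0.020 with filterByExpr, 0.083 on TPM and -0.034 to 0.049 without 1 sample, and NDRG3 at 0.032 on TPM and -0.20 to 0.21 without 1 sample. The cause was not tested. For PLOD3 and the 27 named list genes, 397 alternative values kept direction and call and 89 lost the call.

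Same-numbered samples of the 2 groups did not deviate together (r = -0.023 to 0.0486 across genes), so no shared shift by number was seen. The labels do not say whether equal numbers mark samples handled together, and these correlations cannot decide it. The block gave 1471 higher and 1834 lower genes, and the block with the GC correction was not run. Low counts limit the precision for CA9, which rests on 38 to 96 units per sample.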
